A study of Mus musculus with 8 samples.

Results

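Cadherins and protocadherins are the adhesion proteins of the cadherin superfamily, and their transcripts were followed on Affymetrix mouse gene arrays of *Sox3* null and control neural progenitor (NP) cultures. Members were all transcript clusters, the array's units for a gene or part of one, that carry exactly 1 gene symbol, where that symbol is Cdh or Pcdh followed by a number or by the letter of a protocadherin cluster. This gave 61 transcript clusters of 57 genes, out of 21789 transcript clusters with 1 symbol for 19938 genes. They comprised 5 transcript clusters of type I and 15 of type II classical cadherins, 5 of other cadherins, 14 of single protocadherins and 22 of clustered protocadherins, all 22 of them of the beta family. *Cdh18*, *Cdh24*, *Pcdh9* and *Pcdh15* had 2 transcript clusters each. No gamma protocadherin had a transcript cluster with 1 symbol, and the alpha family was represented by a transcript cluster that 14 alpha symbols share, which is therefore no member.

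SOX3 is a transcription factor of the SOXB1 group that is made in neural progenitors. The *Sox3* null line was made from R1 mouse ES cells and carries a GFP reporter in place of *Sox3*. The control line, also R1, carries a conditional *Sox3* allele and is called wild type in the study's methods. Both were differentiated as monolayers in N2B27, a medium without serum that turns ES cells into neural progenitors, and RNA was taken on Day 4. Each genotype had 4 cultures, 2 in each of 2 independent differentiation batches, with 1 array per culture. Since each genotype is represented by its own line, a difference between the lines cannot be told apart from the loss of *Sox3*. The cultures were profiled whole, with GFP in most but not all null cells according to the study, and the ES cells had been kept on irradiated fibroblasts by its methods. In such bulk samples, fewer cells of a type and less RNA per cell cannot be told apart either.

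Cadherins bind cells to each other through calcium-dependent contacts between like molecules. Classical cadherins are linked to actin by catenins and hold epithelia and the neural tube together, and ES cells are known to exchange E-cadherin for N-cadherin as they become neural. Single (delta) protocadherins adhere weakly and act in cell sorting and migration. The clustered protocadherins lie in tandem arrays of alpha, beta and gamma genes, of which each neuron uses a small combination, chosen through promoters bound by CTCF, as a surface identity code.

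*Sox3*, the deleted gene, had log2 signals of 8.39, 8.56, 8.67 and 8.37 in the *Sox3* null cultures, against 9.92, 9.84, 9.73 and 9.76 in the control cultures, in the order of replicates 1 to 4, of which 1 and 2 are batch 1. The groups did not overlap. Array medians lay between 7.63 and 7.70, and no arrays held identical values. Of 10 neural progenitor markers, *Nes*, *Sox9* and *Zic1* were higher and *Otx2* lower in *Sox3* null cells by the test below. *Sox1*, *Sox2* and *Pax6* did not pass (limma, adjusted p = 0.673, 0.0825 and 0.279). The study's qRT-PCR on the array samples also found no significant difference in these 3 genes. The mean log2 signal of these 10 markers ran from 10.654 to 10.741 over *Sox3* null cultures and from 10.447 to 10.645 over control cultures. That of 8 neuron markers ran from 8.72 to 8.92 over *Sox3* null cultures and from 8.59 to 8.68 over control cultures, with *Map2* higher. Both lists were brighter in every null culture than in any control culture, though for the progenitor markers the closest cultures nearly met, and their part in the results below was not tested.

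Across all 23410 named transcript clusters, limma was fitted with genotype and batch. A call needed an adjusted p no higher than 0.05 and a fold of at least 1.4. By this rule 4 of the 61 members were called, against a background of 0.431% of all transcript clusters. All 4 were higher in *Sox3* null cells: *Pcdh8* and 3 beta protocadherins, *Pcdhb16*, *Pcdhb19* and *Pcdhb21*. By the adjusted p whatever the fold, *Cdh6* and *Pcdhb22* were added, which made 6 of 61 (9.84%), all higher and none lower. The background for that rule was 1.55% in either direction and 1.15% in the higher direction. With each gene's own variance in a plain linear model, none of the 6 passed. At an unadjusted p under 0.05, 16 members were higher and 5 lower (34.4% of 61), where the background was 13.1%. All null arrays lay above all control arrays for 8 members, against a background of 2.41%, and all lay below for *Cdh17* alone. The median log2 fold change was 0.02 over the 61 members and -0.00 over all transcript clusters tested.

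**Figure D1:**
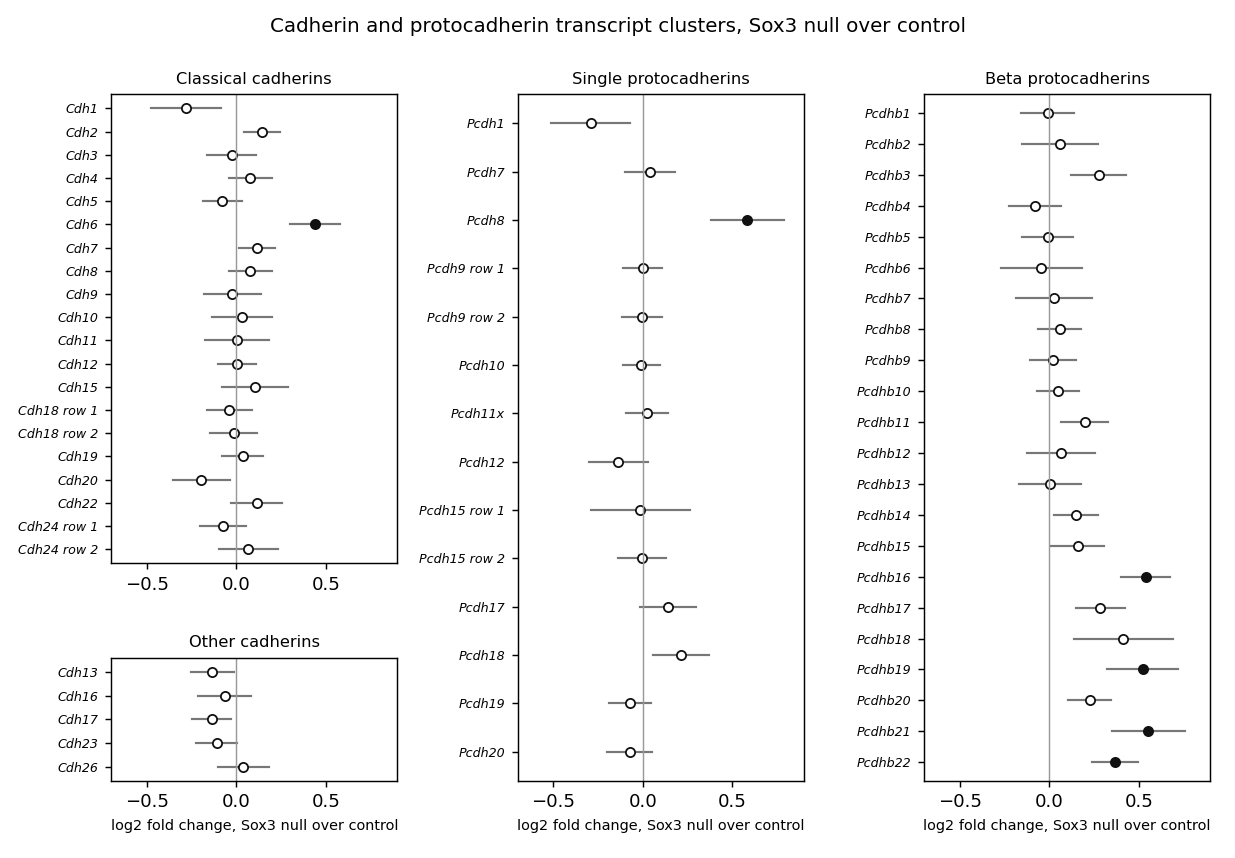
Log2 difference of null minus control cultures (x axis) for each of the 61 transcript clusters, with the 95% confidence interval of the limma fit as a line. Filled circles mark the 6 that passed the test. These lie among the type II cadherins (*Cdh6*), the single protocadherins (*Pcdh8*) and the end of the beta family (*Pcdhb16*, *Pcdhb19*, *Pcdhb21* and *Pcdhb22*).

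The type I classical cadherins did not pass the test between genotypes. *Cdh2*, N-cadherin, the main cadherin of the neural tube, had log2 signals of 12.74, 12.71, 12.56 and 12.51 in *Sox3* null cultures, against 12.55, 12.55, 12.42 and 12.43 in control cultures. Within each batch both null cultures were above both control cultures, while over the batches together the groups overlapped. The log2 fold change was 0.14 (SE 0.0459, adjusted p = 0.198), with 0.11 in batch 2 and 0.17 in batch 1.

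*Cdh1*, E-cadherin, which joins epithelial and ES cells, had log2 signals of 10.17, 10.07, 9.81 and 9.97 in *Sox3* null cultures, against 10.60, 10.66, 9.96 and 9.92 in control cultures. The 2 control cultures of batch 1 stood above the other 6 cultures. The log2 fold change was -0.28 (SE 0.0887, adjusted p = 0.192), with -0.05 in batch 2 and -0.51 in batch 1. The genotype by batch term for *Cdh1* was 0.46 (SE 0.116), with an unadjusted p of 0.00282 and an adjusted p of 1.00. After adjustment over all genes, its genotype difference was therefore not shown to depend on the batch.

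*Cdh3*, P-cadherin of surface and other epithelia, pointed in opposite directions in the batches. Its log2 signals were 8.56 and 8.58 in *Sox3* null cultures and 8.48 and 8.45 in control cultures of batch 2, then 8.87 and 8.78 in *Sox3* null cultures and 8.93 and 9.03 in control cultures of batch 1. The genotypes were apart within each batch by less than the batches were from each other. *Cdh4*, R-cadherin, a neural and retinal cadherin, differed by 0.08 on the log2 scale (SE 0.0538, adjusted p = 0.605). The remaining type I member, *Cdh15*, the cadherin of muscle, had 0.10 (adjusted p = 0.671) and was chosen for mention after its values were seen.

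**Figure D2:**
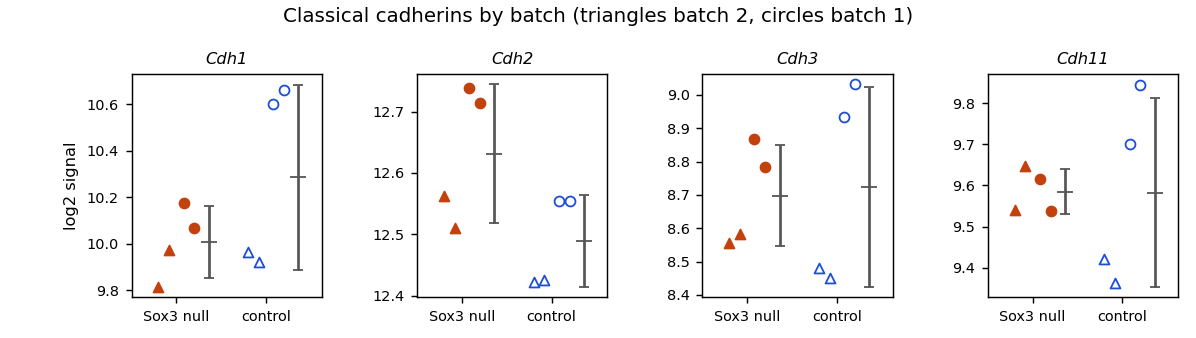
Log2 signal (y axis) of *Cdh1*, *Cdh2*, *Cdh3* and *Cdh11* in each *Sox3* null and control culture, triangles for batch 2 and circles for batch 1, with the mean and SD of the 4 cultures as a bar. The 2 batch 1 control cultures are the highest for *Cdh1*, *Cdh3* and *Cdh11*, and *Cdh2* is higher in *Sox3* null cultures within each batch.

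Of 15 type II transcript clusters, *Cdh6* alone passed the test. *Cdh6*, K-cadherin, is made in kidney, in the dorsal neural tube and in emerging neural crest. Its log2 signals were 9.58, 9.76, 9.20 and 9.37 in *Sox3* null cultures, against 9.33, 9.24, 8.74 and 8.84 in control cultures. The genotypes overlapped over all 8 arrays and were apart within each batch, since batch 2 was lower in both. This gave a log2 fold change of 0.44 (SE 0.0635, a fold of 1.36, adjusted p = 0.00689), with 0.50 in batch 2 and 0.38 in batch 1. It passed without any of the 8 arrays in turn, with an adjusted p between 0.00777 and 0.0291. It did not pass without a batch term (adjusted p = 0.574) or with batch as a random block (adjusted p = 0.148), and its adjusted p was 0.0634 when all rows of the table were fitted.

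Of 7 neural crest markers, *Tfap2b*, *Ednrb* and *Ets1* were also higher in *Sox3* null cells. In the study, the *Ednrb* change was not reproduced by qRT-PCR on independent samples. The other 4 markers did not pass, with log2 fold changes of 0.18 for *Tfap2a*, -0.12 for *Foxd3*, -0.08 for *Sox10* and -0.16 for *Erbb3*. The mean log2 signal of the list ran from 8.02 to 8.32 in *Sox3* null cultures and from 7.74 to 8.14 in control cultures. These overlapped over the batches together, while within each batch both null cultures were above both control cultures. Whether the cultures differed in neural crest cells, and any part of such cells in the *Cdh6* difference, was not tested.

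The other type II cadherins differed less between genotypes. *Cdh20*, a cadherin of neural and neural crest tissue, had log2 signals of 6.84, 6.94, 7.05 and 7.28 in *Sox3* null cultures, against 6.99, 6.94, 7.41 and 7.55 in control cultures. The null cultures were lower within each batch, clearly so in batch 2, and the groups overlapped as a whole. The log2 fold change of -0.20 (SE 0.0725) had an adjusted p of 0.270.

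*Cdh7*, known from the neural crest of chick embryos, differed by 0.11 on the log2 scale (adjusted p = 0.319) with both null cultures above both control cultures in each batch. *Cdh11*, the cadherin of mesenchyme, had a log2 fold change of 0.00 over both batches, with 0.20 in batch 2 and -0.20 in batch 1. *Cdh5*, VE-cadherin of endothelium, had -0.08 (adjusted p = 0.566), and none of the 7 endothelial markers passed or had a signal above the median of all transcript clusters. The whole class had a median of 0.00, with 9 transcript clusters above 0 and 6 below.

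Among the other cadherins, *Cdh13*, T-cadherin, which has a lipid anchor in place of a transmembrane part, differed by -0.14 on the log2 scale (adjusted p = 0.314). *Cdh17*, a cadherin of the intestine, had log2 signals of 4.99, 5.04, 5.01 and 4.91 in *Sox3* null cultures, against 5.12, 5.16, 5.14 and 5.09 in control cultures. The groups did not overlap, and the log2 fold change of -0.14 did not pass (adjusted p = 0.241). These signals were far below the median of all transcript clusters, 7.67, and whether they reflect expression was not tested. The 5 members of this class ran from -0.14 to 0.04.

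*Pcdh8* had the largest log2 fold change of the 61 transcript clusters. It encodes paraxial protocadherin, which in *Xenopus* drives the cell movements of gastrulation and in mammals is found in paraxial mesoderm and in neurons. Its log2 signals were 10.19, 10.11, 10.00 and 10.15 in *Sox3* null cultures, against 9.77, 9.85, 9.24 and 9.25 in control cultures. The null cultures were alike in both batches, while the 2 control cultures of batch 2 were the lowest. This gave a log2 fold change of 0.58 (SE 0.0917, a fold of 1.50, adjusted p = 0.0101).

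The *Pcdh8* difference was 0.83 in batch 2 and 0.34 in batch 1. The genotype by batch term was 0.49 (SE 0.114, unadjusted p = 0.00166, adjusted p = 1.00). With each array left out in turn the adjusted p of *Pcdh8* stayed between 0.00952 and 0.0408. It was 0.0580 with batch as a random block, 0.0944 when all rows of the table were fitted and 0.269 without a batch term.

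The bases before the start of *Cdh6* and *Pcdh8* are shown because these are the 2 of the 6 passed members whose promoters the table used here holds. Capitals mark matches to the SOX core motifs ACAAT and ACAAAG and to the octamer ATGCAAAT of POU factors, searched on both strands. The motifs were chosen after the letters had been seen. Each stretch is the 250 bases upstream of the start in RefSeq, build GRCm38.p6, written 5′ to 3′ along the gene, at chr15:13173676-13173925 (minus strand) for *Cdh6* and chr14:79771313-79771562 (minus strand) for *Pcdh8*.
Cdh6: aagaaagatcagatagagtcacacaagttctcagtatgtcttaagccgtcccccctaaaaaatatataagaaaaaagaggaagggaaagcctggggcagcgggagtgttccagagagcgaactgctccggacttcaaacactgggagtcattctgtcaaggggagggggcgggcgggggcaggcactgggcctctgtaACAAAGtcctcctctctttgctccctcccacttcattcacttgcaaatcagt
Pcdh8: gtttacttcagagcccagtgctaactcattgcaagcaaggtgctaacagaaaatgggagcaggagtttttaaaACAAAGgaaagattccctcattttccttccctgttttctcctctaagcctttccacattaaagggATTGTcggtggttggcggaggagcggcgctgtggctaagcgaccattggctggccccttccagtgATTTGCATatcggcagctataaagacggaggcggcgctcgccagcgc

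The *Cdh6* stretch held ACAAAG once, with its first base 52 bases upstream of the start. That of *Pcdh8* held ACAAAG at 177 bases, ACAAT on the opposite strand at 112 bases and the octamer on the opposite strand at 47 bases. Over 32851 promoters of the same length, 27.7% held ACAAT, 16.5% held ACAAAG and 1.60% held the octamer, so the SOX core matches are common. No match was tested as a binding site.

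The other single protocadherins did not pass. *Pcdh18*, a delta-2 protocadherin of neural and mesenchymal tissue, had log2 signals of 9.92, 9.78, 10.16 and 10.39 in *Sox3* null cultures, against 9.61, 9.73, 9.94 and 10.12 in control cultures. Both null cultures were above both control cultures within each batch, and the groups overlapped as a whole. The log2 fold change was 0.21 (SE 0.0700, adjusted p = 0.205).

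*Pcdh1*, the delta-1 member related to the axial protocadherin of *Xenopus*, had log2 signals of 7.23, 7.09, 6.54 and 6.95 in *Sox3* null cultures, against 7.55, 7.55, 6.77 and 7.10 in control cultures. The groups overlapped, and were apart in batch 1 but not in batch 2. The log2 fold change was -0.29 (SE 0.100, adjusted p = 0.230).

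*Pcdh10*, which acts in axon growth, and *Pcdh19*, the X-linked gene mutated in a human epilepsy, had log2 fold changes of -0.01 (95% interval -0.11 to 0.10) and -0.07 (95% interval -0.19 to 0.05). The delta-1, delta-2 and remaining single protocadherins had medians of -0.00, 0.14 and -0.04. Of the 14 transcript clusters, 5 were above 0 and 9 below.

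The beta protocadherins rose in part. Of 22, 4 passed the test as higher in *Sox3* null cells, none was lower, and 18 did not pass. At an unadjusted p under 0.05, 11 were higher and none lower. The log2 fold change was above 0 for 18 of the 22, with a median of 0.11 that was 0.13 in each batch taken alone. The median was 0.12 when the arrays were quantile normalized again or centred on their medians. None of the 22 reached the median signal of all transcript clusters. The beta genes are intronless paralogs of similar sequence, and how far probes of one read transcripts of another was not tested, so values of single members are uncertain.

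*Pcdhb16* had log2 signals of 7.19, 7.15, 6.96 and 7.10 in *Sox3* null cultures, against 6.67, 6.58, 6.39 and 6.61 in control cultures. The groups were far apart in both batches. Its log2 fold change was 0.54 (SE 0.0616, a fold of 1.45, adjusted p = 0.00163), with 0.53 in batch 2 and 0.55 in batch 1. Of the 6 passed members it was the only one that still passed when all rows of the table were fitted or when the batch term was left out.

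*Pcdhb21* had log2 signals of 6.69, 6.62, 6.55 and 7.05 in *Sox3* null cultures, against 6.11, 6.21, 6.21 and 6.18 in control cultures. The control cultures were nearly equal, and replicate 4 was the highest null culture. Its log2 fold change was 0.55 (SE 0.0920, a fold of 1.47, adjusted p = 0.0132). The adjusted p was 0.0537 without control replicate 1 and 0.0513 without *Sox3* null replicate 1.

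*Pcdhb19* had log2 signals of 6.41, 6.40, 6.41 and 6.76 in *Sox3* null cultures, against 5.92, 6.14, 5.89 and 5.94 in control cultures. Here 3 null cultures were nearly equal and replicate 4 stood above them. Its log2 fold change was 0.52 (SE 0.0893, a fold of 1.44, adjusted p = 0.0154). The adjusted p was 0.0657 without control replicate 1 and 0.0599 without control replicate 3. Without *Sox3* null replicate 4 the log2 fold changes of *Pcdhb19* and *Pcdhb21* were 0.42 and 0.44, below a fold of 1.4.

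*Pcdhb22* had log2 signals of 7.68, 7.56, 7.46 and 7.64 in *Sox3* null cultures, against 7.19, 7.28, 7.16 and 7.24 in control cultures. The groups did not overlap. Its log2 fold change was 0.37 (SE 0.0584, a fold of 1.29, adjusted p = 0.0107), and the adjusted p was 0.0510 without control replicate 1.

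**Figure D3:**
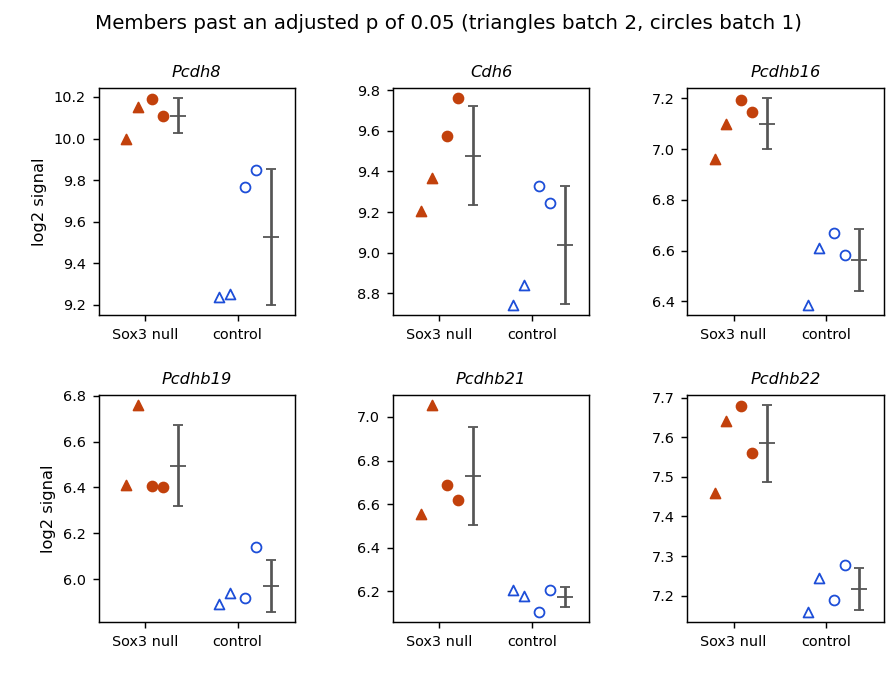
Log2 signal (y axis) of the 6 members that passed the test in each *Sox3* null and control culture, triangles for batch 2 and circles for batch 1, with the mean and SD of the 4 cultures as a bar. All null cultures lie above all control cultures for the 5 protocadherins, and for *Cdh6* this holds within each batch.

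By their order along chromosome 18 in the gene table, the 4 beta genes that passed lay among the last 7. These 7 genes, from *Pcdhb16* to *Pcdhb22*, had log2 fold changes between 0.23 and 0.55, with a median of 0.41 (0.35 in batch 2 and 0.39 in batch 1). The 15 genes before them ran from -0.08 to 0.28, with a median of 0.05. The dimmest beta genes were among these 15, down to *Pcdhb9* with mean log2 signals of 4.23 in *Sox3* null and 4.21 in control cultures. The dimmest of the 7 was *Pcdhb17* (5.69 and 5.40), while *Pcdhb11* of the 15 had 7.21 and 7.01. The part of signal level in this contrast was not tested. All null arrays were above all control arrays for 6 of the 7 and for 1 of the 15, *Pcdhb14*. This division was made after the values had been seen and carries no test.

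Within the 7, *Pcdhb17* (0.29, adjusted p = 0.0530), *Pcdhb20* (0.23, adjusted p = 0.0822) and *Pcdhb18* (0.41, adjusted p = 0.167) did not pass. *Pcdhb18* had the widest spread of these, with log2 signals of 7.07, 6.73, 6.52 and 6.88 in *Sox3* null cultures and 6.16, 6.45, 6.29 and 6.64 in control cultures, which overlapped. Among the 15, *Pcdhb3* had 0.28 (adjusted p = 0.0996), *Pcdhb11* 0.20 (adjusted p = 0.166), *Pcdhb15* 0.16 (adjusted p = 0.339) and *Pcdhb14* 0.15 (adjusted p = 0.262). *Pcdhb4* had the lowest value of the family, -0.08 (adjusted p = 0.682).

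Across the 22 genes, Spearman's rho between order along the cluster and log2 fold change was 0.75, and between mean log2 signal and log2 fold change it was 0.52. Both are descriptions over genes of the same 8 arrays, which share their probes' signal range and are not independent. The alpha transcript cluster shared by 14 symbols differed by 0.01 on the log2 scale (adjusted p = 0.963). Protocadherins were passed over in choosing the 10 nearest measured genes, 5 on each side of the beta genes. The alpha and gamma genes are therefore not among them, and the 10 need not be the next genes along the chromosome. None of the 10 passed, and they ran from -0.10 to 0.19 with a median of 0.01.

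**Figure D4:**
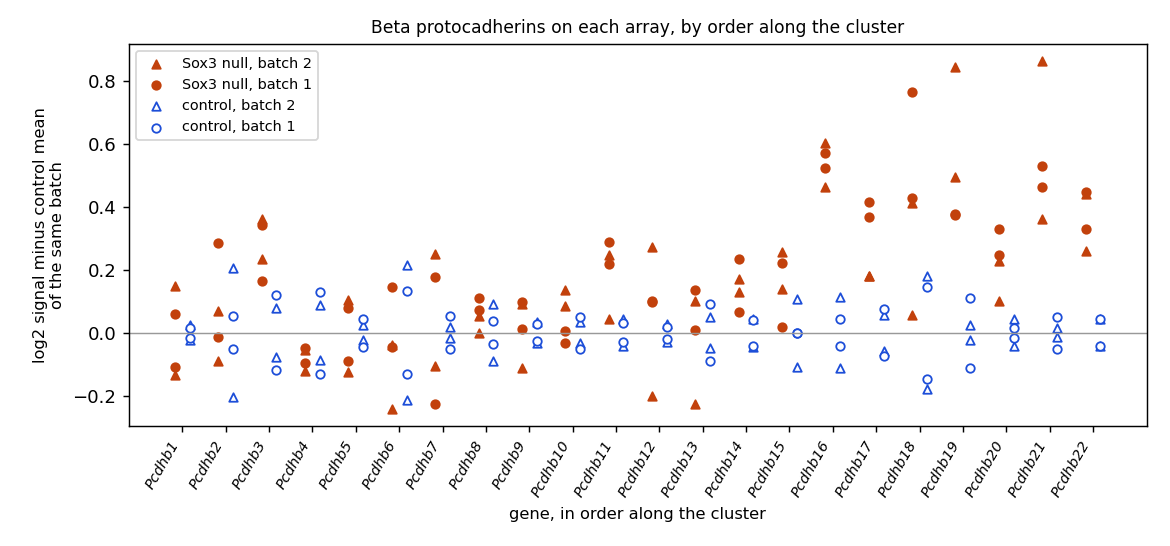
Log2 signal of each array minus the control mean of the same batch (y axis) for the 22 beta protocadherins in their order along the cluster (x axis), filled for *Sox3* null and open for control cultures, triangles for batch 2 and circles for batch 1. From *Pcdhb16* to *Pcdhb22* the null cultures lie above 0 in both batches, and before *Pcdhb16* most genes have null cultures on both sides of 0 or near it.

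For the genes of proteins that work with cadherins, the background was 1.55% of all transcript clusters with an adjusted p of 0.05 or less. Of 12 catenins and junction partners, *Ctnna2*, the alpha-catenin of neurons that ties cadherins to actin, was higher in *Sox3* null cells, with a log2 fold change of 0.49 (SE 0.0601, adjusted p = 0.00244). The other 11 did not pass, and neither did any of 14 measured genes listed for the rest of the cadherin superfamily, such as the Celsr, Fat and desmosomal cadherins, a list that also took in *Dsp*, desmoplakin, a desmosomal linker and no cadherin. The medians of these lists were 0.02 and -0.03.

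Of 9 factors that govern the switch between cadherins, *Twist1*, a regulator of mesenchyme and neural crest, was higher, with 8.75 ± 0.126 in *Sox3* null cultures and 8.26 ± 0.114 in control cultures (log2 signal, SD, n = 4 each, adjusted p = 0.00929). Of 13 regulators of the clustered protocadherins, which include CTCF and cohesin, *Dnmt3b* was lower. This DNA methyltransferase, which in mice sets methylation at protocadherin promoters, had 10.36 ± 0.0298 in *Sox3* null cultures and 10.69 ± 0.115 in control cultures (log2 signal, SD, n = 4 each), a log2 fold change of -0.33 (adjusted p = 0.0154). The other 12 regulators and the 5 measured effectors downstream of clustered protocadherins did not pass.

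Markers of further cell types moved as follows. Of 8 pluripotency markers *Nanog* was lower in *Sox3* null cells, and the mean log2 signal of the list ran from 9.57 to 9.75 in *Sox3* null cultures and from 9.68 to 9.84 in control cultures. Of 8 epithelial and surface ectoderm markers *Cldn6* was lower, and the list ran from 8.15 to 8.50 in *Sox3* null cultures and from 8.26 to 8.82 in control cultures. Of 8 fibroblast and mesenchyme markers *Thy1* was lower and the other 7 did not pass. Of the 8, 5 were above 0, with a median log2 fold change of 0.04. The mean log2 signal of this list ran from 6.51 to 6.77 in *Sox3* null cultures and from 6.64 to 6.86 in control cultures. Over the batches together these 3 lists overlapped between genotypes. For the epithelial list both null cultures were below both control cultures within each batch. For the pluripotency list this held in batch 1 alone, and for the fibroblast list in batch 2 alone. Of the 8 epithelial markers 1 was above 0 (median log2 fold change -0.22), and of the 8 pluripotency markers 2 were (median -0.12). The part of the 3 lists in the values of *Cdh1*, *Cdh3* and *Cdh11* was not tested.

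More members differed between the differentiation batches than between genotypes, as was so for all transcript clusters tested (20.2% and 1.55% passed). In the same fit, 7 transcript clusters were higher and 10 lower in batch 2 than in batch 1 by their adjusted p, 27.9% of the members, where the background was 20.2%. This was 10 of the 20 classical cadherin transcript clusters, 5 of the 14 single protocadherin ones, 1 of the 5 other cadherins and 1 of the 22 beta protocadherins, *Pcdhb11*. Only 11 passed without control replicate 1 or without control replicate 2, which leaves 7 arrays.

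The largest differences that were lower in batch 2 were those of *Cdh13*, *Pcdh1* and *Cdh1*. *Cdh13* averaged 7.99 ± 0.0548 in batch 2 and 8.53 ± 0.128 in batch 1 (log2 signal, SD, n = 4 each), a log2 difference of -0.54 (adjusted p = 0.000143). *Pcdh1* had -0.51 (adjusted p = 0.00466) and *Cdh1* -0.46 (adjusted p = 0.00452). *Cdh6* (-0.44, adjusted p = 0.000919), *Cdh3* (-0.39, adjusted p = 0.00178), *Pcdh8* (-0.32, adjusted p = 0.0316) and *Cdh2* (-0.16, adjusted p = 0.0304) were lower in batch 2 as well.

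The largest differences that were higher in batch 2 were those of *Cdh10*, *Cdh20* and *Pcdh18*. *Cdh10*, a type II cadherin of brain, averaged 8.26 ± 0.131 in batch 2 and 7.80 ± 0.101 in batch 1 (log2 signal, SD, n = 4 each), a log2 difference of 0.46 (adjusted p = 0.00190), and 0.03 between genotypes (adjusted p = 0.911). *Cdh20* had 0.40 (adjusted p = 0.00341) and *Pcdh18* 0.39 (adjusted p = 0.00290). For *Cdh10*, *Cdh20* and *Pcdh18* the 4 cultures of batch 2 were all above the 4 of batch 1, and for *Cdh13*, *Cdh1* and *Cdh3* they were all below.

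The marker lists also differed by batch, where the background was 20.2% of all transcript clusters. Of 8 epithelial markers 4 were lower in batch 2, with a mean log2 signal from 8.15 to 8.32 in batch 2 and from 8.48 to 8.82 in batch 1. Of 7 neural crest markers 1 was higher and 4 lower in batch 2, with a mean from 7.74 to 8.07 in batch 2 and from 8.13 to 8.32 in batch 1. All batch 2 cultures were also below all batch 1 cultures for the endothelial (6.14 to 6.24 against 6.25 to 6.35) and fibroblast (6.51 to 6.65 against 6.69 to 6.86) lists. The same held for the catenins, the other cadherin superfamily, the switch factors and the protocadherin effectors. The progenitor, neuron, pluripotency and protocadherin regulator lists overlapped between batches. Of 10 progenitor markers 2 were higher and 5 lower in batch 2. The part of any list in the batch differences of the cadherins was not tested.

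**Figure D5:**
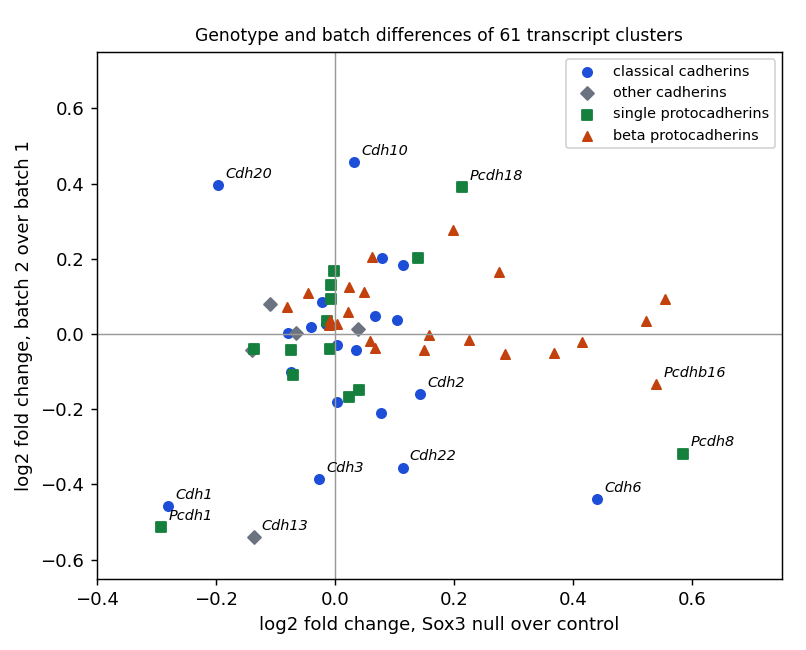
Log2 difference of null minus control cultures (x axis) against that of batch 2 minus batch 1 (y axis) for the 61 transcript clusters, by class. The classical cadherins run from -0.28 to 0.44 by genotype and from -0.46 to 0.46 by batch, and the beta protocadherins from -0.08 to 0.55 by genotype and from -0.13 to 0.28 by batch.

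Whether a genotype difference depended on the batch was tested with a genotype by batch term. At an unadjusted p under 0.05 it took in 4 of the 61 members, *Cdh1*, *Cdh3*, *Cdh11* and *Pcdh8*. The smallest adjusted p over the members was 1.00, and over all 23410 transcript clusters it was 0.862, with 715 at an unadjusted p under 0.05. No member was therefore shown to respond differently in the batches.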

How the data were processed

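Mouse gene arrays of 8 cultures were used, 4 of each genotype. Values were used as the authors deposited them, as log2 signals already normalized and summarised per transcript cluster. Partek is named in the submitters' processing notes. How the arrays were normalized and summarised, and on which build, was not given in the sources used here. Symbols were those of the platform annotation, brought up to date with the RefSeq gene table (GRCm38.p6), which also gave chromosome and gene order. Of 35556 rows, 21789 had 1 symbol, 1621 several and 12146 were unnamed here.

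A linear model with genotype and batch was fitted to the 23410 rows with a symbol (limma 3.58.1, R 4.3.3), with moderated variances and Benjamini-Hochberg adjustment over all of these rows. All p-values in the text are from limma. The study's methods state an ANOVA that includes batch. Its list of genes with a p of 0.05 or less and a fold of 1.4 or more holds no cadherin or protocadherin. The median residual SD was 0.0869, and the number of arrays limits the precision. The samples are biological replicates according to the paper. The steps were tested on simulated data. Same-numbered cultures did not pair: after batch, their deviations correlated at 0.30 in batch 2 and -0.32 in batch 1.

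The members and lists were chosen with earlier results of these data known. Named were members with an unadjusted p under 0.05, the 3 largest batch differences each way, members that mark cell types, the highest and lowest of each clustered family, and up to 4 passed genes of each list. Any other member named was chosen after its values were seen. Alternatives covered rows, dim signal, batch, variance, normalization, thresholds, each batch alone and each array left out.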

Additional observations from a re-analysis of the deposited data

Results flagged for a closer look

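Over the named members, 58 groups of 4 cultures were examined for a culture far from the others, and 1 was found, where chance gives about 1 in 20 groups. For *Pcdhb19*, *Sox3* null replicate 4 lay apart from the other 3 null cultures, with a gap that took up 0.975 of the group's range (6.76, against 6.40 to 6.41).

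*Cdh3* and *Cdh11* pointed in opposite directions in the batches, with both null cultures above both control cultures in batch 2 and below them in batch 1. The genotype difference of *Cdh3* was 0.10 in batch 2 and -0.16 in batch 1, a difference of 0.26 on the log2 scale (unadjusted p = 0.0323, adjusted p = 1.00). That of *Cdh11* was 0.20 in batch 2 and -0.20 in batch 1, a difference of 0.40 (unadjusted p = 0.00647, adjusted p = 1.00).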

How the results depend on the processing

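With 4 arrays a genotype, the counts of members rested on how the variance and batch were treated. In place of 4 called members and 6 with an adjusted p of 0.05 or less, all rows of the table gave 1 and 1, rows at or above the median signal 1 and 2, no batch term 1 and 1, the plain linear model 0 and 0, batch 1 alone 0 and 0, and batch 2 alone 1 and 1. The cause was not tested, other than that each batch alone has 4 arrays and that no beta protocadherin reached the median signal. Members outside the clustered protocadherins, an alternative added after the data were seen, gave 1 and 2. Batch as a random block gave 3 and 4, and *Pcdh8* (adjusted p = 0.0580) and *Cdh6* (adjusted p = 0.148) were lost. The replicate block gave 4 and 6, as in the fit with batch, and changed no call. With an array left out, 2 to 4 were called and 3 to 6 passed, with 2 called without control replicate 1 or *Sox3* null replicate 4 and 3 passed without control replicate 1. Between the batches 17 members passed, with 10 among rows at or above the median signal and 11 to 14 with an array left out. No passed member changed sign in any alternative. Near 0, the sign turned for *Cdh10* (-0.062 in batch 1 alone, -0.040 to 0.091 with an array left out), *Pcdh10* (0.00311 after quantile normalization, 0.00380 after centring, 0.029 in batch 2 alone, -0.028 to 0.011 with an array left out), *Cdh3* (0.10 in batch 2 alone, -0.059 to 0.019 with an array left out) and *Cdh11* (-0.025 after quantile normalization, -0.029 with array weights, -0.20 in batch 1 alone, -0.058 to 0.072 with an array left out). *Pcdhb17* passed under 6 alternatives and *Pcdhb20* under 2.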
